A study of Mus musculus with 8 samples.

Results

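Opposite-strand noncoding transcripts are RNAs that the mouse annotation names for the protein-coding gene on the other strand, with the ending os. Genes were taken as members where the GENCODE M21 symbol had that ending and the annotated gene type was not protein-coding. The annotation holds 292 such genes, and 79 of them were among the 17488 genes of the deposited table. By annotated type 68 were antisense, 6 lincRNA, 2 bidirectional-promoter lncRNA, 2 processed transcripts and 1 a transcribed unitary pseudogene. Choice by symbol used no measured value, but presence in the deposited table may have, since its filter is not given.

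The libraries came from whole neuroblastomas, tumour and stroma cells together, of 8 mice homozygous for TH-MYCN, 1 library per mouse. In this transgene human MYCN is driven by the tyrosine hydroxylase promoter, which is active in cells of the sympathoadrenal lineage. Panobinostat, a hydroxamate inhibitor of histone deacetylases, was given to 4 of the mice as 2 doses of 5 mg/kg 24 h apart. The other 4 received vehicle. All carried tumours of 200 to 300 mm3, found by ultrasound at about 6 weeks of age, when treatment began, and tumours were taken 4 h after the second dose.

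A transcript that starts near a coding gene's promoter on the other strand often shares that promoter's open chromatin with the coding gene, and many such RNAs are spliced poorly, kept in the nucleus and degraded there by the exosome. Some are known to act on the gene they face. Dlx6os1 in mouse (also called Evf2) binds DLX proteins at an enhancer of the Dlx5 and Dlx6 genes, and Uchl1os in mouse raises translation of Uchl1 through a SINE sequence. The comparison asks how these RNAs, and the coding genes they face, differed after about a day of histone deacetylase inhibition.

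In 50 of 79 the exons of the 2 genes overlapped in the annotation, over a median of 9.98% of the transcript's exon length (range 0.19% to 73.1%). In 12 the gene bodies overlapped and the exons did not, in 14 the 2 genes lay apart and head to head, and in 3 they lay apart and tail to tail. The nearest annotated transcript starts of the 2 genes, over all isoforms, were within 500 bp of each other for 39 of 79, and the outermost 5′ ends of the genes for 23. Whether the authors' counting used strand is not given in the sources used here, so reads from shared exonic bases could have been given to either gene or to neither. Without strand, reads from an intron of the sense gene could also be counted to a transcript whose exons lie in it. With any annotated gene, 58 members share exonic bases and 21 share none.

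Start regions are shown for 4 transcripts on which the results turn. Map2k3os and Ttc39aos1 lie head to head with their sense genes and moved in the same direction as them, and Abhd11os and Rab10os moved in the direction opposite to theirs. The sequences are RefSeq's on GRCm38.p6, 5′ to 3′ on the transcript's own strand and span RefSeq's start. GENCODE's start lies inside the windows of Map2k3os and Abhd11os, downstream of that of Ttc39aos1 and upstream of that of Rab10os. That of Map2k3os (chr11:60931818-60932032, minus strand) is shortened where it met exon sequence of the coding gene. The other regions are chr4:109406208-109406507 on the minus strand for Ttc39aos1, chr5:135013108-135013407 on the minus strand for Abhd11os and chr12:3235541-3235840 on the plus strand for Rab10os. Capitals mark GGGCGG on either strand, the core of the GC box that Sp1 binds, and CACGTG, the E-box that MYC proteins bind.
Map2k3os: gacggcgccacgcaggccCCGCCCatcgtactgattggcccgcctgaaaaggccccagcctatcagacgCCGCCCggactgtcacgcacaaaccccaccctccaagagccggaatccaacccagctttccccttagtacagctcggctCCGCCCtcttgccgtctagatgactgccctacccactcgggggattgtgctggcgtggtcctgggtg
Ttc39aos1: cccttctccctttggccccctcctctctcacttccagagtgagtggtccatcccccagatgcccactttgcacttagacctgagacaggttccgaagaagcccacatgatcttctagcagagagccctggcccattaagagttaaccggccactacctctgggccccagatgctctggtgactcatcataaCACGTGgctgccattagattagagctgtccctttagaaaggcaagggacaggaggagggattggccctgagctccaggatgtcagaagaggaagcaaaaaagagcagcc
Abhd11os: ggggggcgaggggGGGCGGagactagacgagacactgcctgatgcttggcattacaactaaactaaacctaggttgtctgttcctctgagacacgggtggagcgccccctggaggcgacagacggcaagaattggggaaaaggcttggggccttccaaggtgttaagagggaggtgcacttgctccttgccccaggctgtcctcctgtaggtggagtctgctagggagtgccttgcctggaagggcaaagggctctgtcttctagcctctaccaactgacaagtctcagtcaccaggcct
Rab10os: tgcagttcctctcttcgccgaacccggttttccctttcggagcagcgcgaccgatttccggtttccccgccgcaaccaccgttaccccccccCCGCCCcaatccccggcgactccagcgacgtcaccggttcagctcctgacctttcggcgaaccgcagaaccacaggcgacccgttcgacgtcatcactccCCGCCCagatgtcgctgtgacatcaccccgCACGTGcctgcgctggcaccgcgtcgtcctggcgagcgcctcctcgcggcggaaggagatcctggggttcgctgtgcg
The Map2k3os region held 3 GC-box cores and 16 CG dinucleotides in 215 bases, and that of Rab10os held 2 GC-box cores, 1 E-box and 39 CG dinucleotides in 300 bases. The Ttc39aos1 region held 1 E-box and 3 CG dinucleotides, and that of Abhd11os 1 GC-box core and 7 CG dinucleotides. RefSeq gave start regions for 49 of the members, 65 in all. GGGCGG was in 38.5% of these, against 35.7% of 32851 start regions of mouse genes, CACGTG in 12.3%, against 7.15%, and TATAAA on either strand in 9.23%, against 13.6%. A match of letters describes the window and does not show binding.

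Most of the transcripts were rare. Reads were recovered from the deposited log2 CPM, which are counts scaled to an effective library size on a log2 scale, and summed to 18664066 to 22235545 in panobinostat libraries and 22055658 to 23830026 in vehicle libraries. A member was tested where at least 4 of 8 libraries reached 1 CPM, which 62 of 79 did. The 17 that did not held 2 to 73 reads per library, with panobinostat above vehicle in all libraries for Arhgap27os1, Dhx58os and Stamos and below it for Parvaos, Ppp1r18os and Slain1os, named because their groups did not overlap. The mean level of tested members ran from -0.21 to 5.47 log2 CPM with a median of 0.92, against 4.63 for all tested genes, and 60 of the 62 lay below that median. In 29 of the 62 every library reached 1 CPM, while 6 reached it in every library of 1 group and in none of the other and so passed the filter through that group: Lppos and Mypopos through panobinostat, and Kank4os, Phf2os1, Uchl1os and Lrp8os3 through vehicle. These 6 had to differ to be tested, and their calls support nothing by themselves. Map2k3os, Foxd2os, Bach2os and Igf2os reached 1 CPM in every panobinostat library and in 1 vehicle library. Zfp335os, Grin1os, Dlx6os1 and Kdm6bos reached it in every vehicle library and in 1 panobinostat library. Their entry into the test thus also rested on the group where they were higher.

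Per kilobase of merged exon the transcripts stood at a median of 13.0% of their sense gene's level in panobinostat tumours and 12.6% in vehicle tumours, over the 78 whose sense gene was listed. Under 10% of the sense level were 34 members with panobinostat and 32 with vehicle. More abundant per length than the sense gene were 11 with panobinostat and 8 with vehicle. Both counts include Foxd2os and Hoxb3os, whose sense genes held only 1 to 13 and 1 to 16 reads in vehicle libraries. Ttc39aos1 stood at 356% of Ttc39a with panobinostat and 652% with vehicle, and Brip1os at 225% of Brip1 in both groups. At the low end Uchl1os stood at 0.126% of Uchl1, an abundant neuronal deubiquitinase, with panobinostat and at 0.118% with vehicle. Rab26os, at 551% of Rab26 with panobinostat and 3177% with vehicle, is annotated over the small nucleolar RNA gene Snord60. Rab26 held 6 to 24 reads in vehicle libraries, so the value with vehicle rests on few reads. Dnm3os, at 196% of Dnm3 with panobinostat and 143% with vehicle, holds the microRNA genes Mir199a-2 and Mir214.

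**Figure D1:**
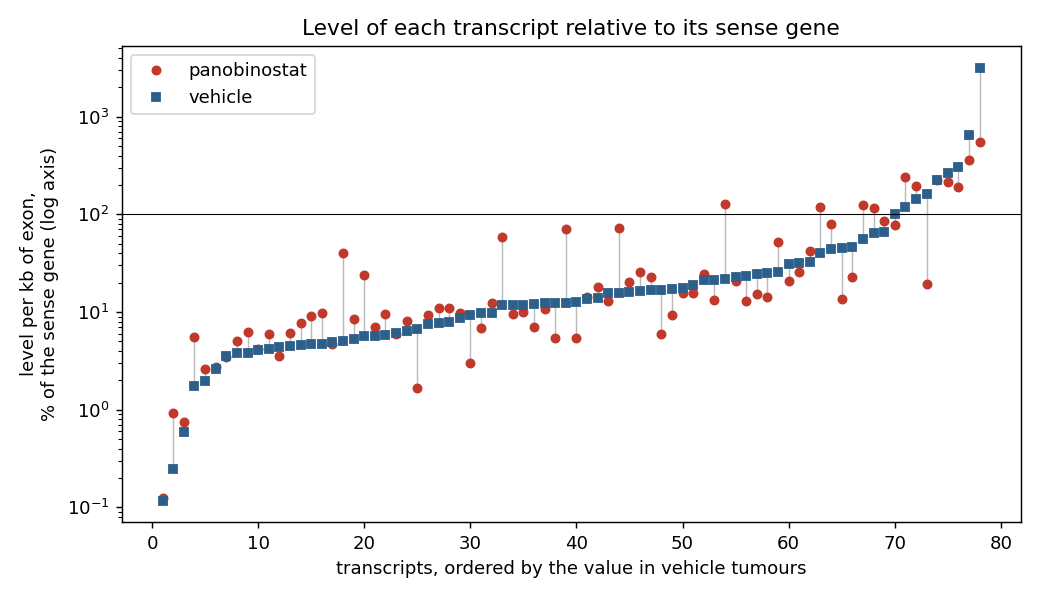
Level of 78 opposite-strand transcripts per kilobase of merged exon as a percentage of the sense gene's level (log axis), in panobinostat (circles) and vehicle tumours (squares), means of 4 libraries each, ordered along the x axis by the value with vehicle. The line at 100% marks equal level, and 11 transcripts lay above it with panobinostat and 8 with vehicle.

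Of the 62 tested transcripts 28 changed (45.2%), 11 higher and 17 lower in panobinostat tumours than in vehicle tumours, beside 63.7 percent of all 16157 genes tested. Of the 29 at 1 CPM in all 8 libraries 3 rose and 8 fell, and all 6 members that entered through 1 group are among the 28, which leaves 9 higher and 13 lower of the other 56. Higher were 31.2 percent and lower 32.4 percent of all genes. The test was limma with a variance trend on 4 against 4 libraries, two-sided, with Benjamini-Hochberg adjustment over all genes tested and a threshold of 0.05. The groups did not overlap for 23 members (37.1%), 10 of them above and 13 below vehicle, beside 59.7 percent of all genes. Among tested genes under 8 CPM, a level more like that of the members, 52.9 percent changed, 1765 higher and 708 lower, and of the 56 members under that level 10 rose and 15 fell (44.6%). The median log2 change was -0.21 over tested members (range -2.88 to 3.09), against -0.02 over all tested genes and 0.45 over those under 8 CPM. The median of all tested genes was -0.14 with libraries centred on their medians and 0.10 with libraries scaled to read totals, where 11 members rose in both and 20 fell in the first and 13 in the second. With quantile normalization the members' split was 7 higher and 35 lower, and genes under 8 CPM moved to a median of -0.19. With libraries 3 and 4 of panobinostat left out, 7 rose and 11 fell.

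The sense genes fell more often than they rose, with 13 higher and 35 lower of 74 tested and a median of -0.41. Of 234 other tested genes that the annotation types as antisense, 38 rose and 46 fell (35.9% called, median -0.08). Of 514 tested non-coding genes of other types 87 rose and 136 fell (43.4% called, median -0.11), shares near those of the members. Of 14220 protein-coding genes 4769 rose and 4608 fell. By position, 8 members rose and 10 fell of 38 tested whose exons overlap the sense gene's, 0 and 3 of 10 where only gene bodies overlap, 2 and 3 of 11 head to head, and 1 and 1 of 3 tail to tail. Of 16 tested members that share no exonic base with any gene 3 rose and 5 fell.

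Other cell types differed between the groups in the same libraries. Of macrophage markers 9 of 10 were higher, with summed levels of 3086 to 5518 CPM with panobinostat and 640 to 1217 CPM with vehicle, and all 10 fibroblast and mural markers were higher, at 9244 to 16585 CPM with panobinostat and 1600 to 5125 CPM with vehicle. All 6 adipocyte markers were higher (1089 to 1661 CPM with panobinostat, 25.4 to 676 CPM with vehicle), as were 6 of 8 Schwann markers (101 to 409 CPM with panobinostat, 96.3 to 153 CPM with vehicle). The 5 tested adrenal cortex markers of 8 were higher too, at 39.6 to 2756 CPM with panobinostat and 9.21 to 11.4 CPM with vehicle, where 1 was at 0 in all libraries. Liver markers summed to 221 to 9929 CPM with panobinostat and 8.93 to 116 CPM with vehicle (4 of 4 tested of 10 higher), pancreas markers to 15.2 to 4005 CPM with panobinostat and 7.57 to 14.4 CPM with vehicle (1 of 1 tested of 7 listed), and kidney markers to 4.17 to 789 CPM with panobinostat and 0.707 to 3.41 CPM with vehicle (1 of 2 tested). Of 10 sympathoadrenal tumour markers 8 were lower and 0 higher, at 1004 to 1069 CPM with panobinostat and 2472 to 3727 CPM with vehicle. Their part in the changes below was not tested. In whole tumours fewer cells of a type and less RNA per cell cannot be told apart.

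The transcripts that rose included those of the kinase gene Map2k3, the homeobox gene Hoxb3 and the forkhead gene Foxd2. Map2k3os (ENSMUSG00000042549, mm10 chromosome 11, 60920917 to 60931867) lies head to head with Map2k3, the kinase that activates p38, with 165 bp between them. It held 80, 54, 77 and 84 reads in the panobinostat libraries and 5, 12, 11 and 26 in the vehicle libraries. Every panobinostat library lay above every vehicle library, at 1.84 ± 0.25 log2 CPM with panobinostat and -0.85 ± 0.97 with vehicle (SD, n = 4 each), a log2 change of 2.69 (SE 0.46, adjusted p = 7.50e-04). Map2k3 itself rose by 1.82 (SE 0.18), at 1624 to 2422 reads in panobinostat tumours and 465 to 714 in vehicle tumours. The difference between the changes, 0.87 (95% interval 0.02 to 1.72), did not pass the limma test over all pairs (adjusted p = 0.0781).

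Foxd2os, on chromosome 4 at 114909257 to 114921967, lies 383 bp from the forkhead factor gene Foxd2. It held 86, 54, 81 and 58 reads with panobinostat and 33, 15, 16 and 14 with vehicle, a log2 change of 1.95 (SE 0.31, adjusted p = 4.75e-04). Foxd2 itself was under the filter, with 17 to 34 reads in panobinostat tumours and 1 to 13 in vehicle tumours. Hoxb3os, whose exons overlap those of the homeobox gene Hoxb3 over 53.6% of their length, held 64, 64, 58 and 53 reads with panobinostat and 28, 20, 18 and 9 with vehicle. It rose by 1.83 (SE 0.33, adjusted p = 0.00116), and Hoxb3 by 2.84 (SE 0.63), with 25 to 39 reads in panobinostat tumours and 1 to 16 in vehicle tumours. Hoxb3 itself was tested through its panobinostat libraries alone, so it could be called higher only. In both pairs the panobinostat libraries lay above the vehicle libraries for the transcript and for the coding gene.

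Adap2os (chromosome 11, 80158861 to 80177629), which faces the gene of an ARF GTPase-activating protein, held 73, 53, 59 and 45 reads with panobinostat and 28, 21, 17 and 8 with vehicle, and rose by 1.80 (SE 0.37, adjusted p = 0.00222). Adap2 rose by 1.59 (SE 0.41), and the difference between them was 0.20 (95% interval -0.46 to 0.86). Slmapos2, which lies 17646 bp from Slmap, a gene of a membrane-anchored subunit of the STRIPAK phosphatase complex, held 408, 437, 500 and 560 reads with panobinostat and 336, 275, 184 and 120 with vehicle. All 4 panobinostat values lay above the vehicle values. It rose by 1.23 (SE 0.30, adjusted p = 0.00591) and by 0.91 more than Slmap (SE 0.22, adjusted p = 0.00492, limma on the pairs, exact permutation p = 0.0286). Without libraries 3 and 4 of panobinostat its rise was 1.05 (adjusted p = 0.0651) and the difference 0.72 (adjusted p = 0.0711), and with quantile normalization the difference was 0.41 (adjusted p = 0.0728).

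The remaining 3 transcripts that rose in the same direction as the coding gene, or without it, lie outside the naming rule and were picked once their values were known. Igf2os, opposite the imprinted growth factor gene Igf2, held 37, 22, 34 and 36 reads with panobinostat and 10, 13, 27 and 6 with vehicle. These groups overlapped, and the rise of 1.43 (SE 0.43, adjusted p = 0.0155) was smaller than that of Igf2 (3.19, SE 0.48) by 1.77 (SE 0.50, adjusted p = 0.0132). That difference had an exact permutation p of 0.0571 and did not pass limma without libraries 3 and 4 of panobinostat (adjusted p = 0.0538). Lppos rose by 1.16 (SE 0.26) and Lpp, the gene of a focal adhesion protein, by 1.54 (SE 0.25). Mypopos rose by 0.95 (SE 0.28) while Mypop, the gene of a Myb-related factor, stood at a change of -0.00 (SE 0.18), a difference of 0.95 (adjusted p = 0.0142) that did not pass with quantile normalization (0.58, adjusted p = 0.0866) or without libraries 3 and 4 of panobinostat (adjusted p = 0.0534). Lppos and Mypopos were tested through their panobinostat libraries alone. The calls of all 3 transcripts were lost with quantile normalization and without libraries 3 and 4 of panobinostat, and without these libraries the adjusted p was 0.123 for Igf2os, 0.0753 for Lppos and 0.0793 for Mypopos.

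The transcripts that fell included those of Ttc39a, of the NMDA receptor gene Grin1 and of the homeobox genes Prox1, Emx2 and Dlx6. Ttc39aos1 (ENSMUSG00000085873, chromosome 4, 109403794 to 109406155), head to head with the tetratricopeptide repeat gene Ttc39a at 467 bp, had the lowest log2 change of the tested members. It held 200, 91, 112 and 98 reads with panobinostat and 1208, 972, 913 and 699 with vehicle. The groups were far apart, at 2.54 ± 0.42 log2 CPM with panobinostat and 5.42 ± 0.30 with vehicle (SD, n = 4 each), and the change was -2.88 (SE 0.24, adjusted p = 1.38e-05). Ttc39a fell by 1.97 (SE 0.14), with 174 to 220 reads in panobinostat tumours and 731 to 1017 in vehicle tumours. The transcript fell by 0.91 more (SE 0.27, adjusted p = 0.0170, limma on the pairs, exact permutation p = 0.0571), and this difference was 0.72 without libraries 3 and 4 of panobinostat (adjusted p = 0.147).

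Zfp335os, on chromosome 2 at 164911354 to 164919953, held 24, 8, 14 and 16 reads with panobinostat and 104, 106, 117 and 99 with vehicle. It fell by 2.76 on the log2 scale (SE 0.30, adjusted p = 5.71e-05), and Zfp335, a zinc finger gene needed for neural progenitors, fell by 0.98 (SE 0.12). The change of the transcript was lower by 1.78 (SE 0.31, adjusted p = 8.61e-04, limma on the pairs, exact permutation p = 0.0286). Grin1os, which shares 45.2% of its exon length with Grin1, the gene of the obligatory NMDA receptor subunit, held 21, 11, 21 and 17 reads with panobinostat and 136, 127, 119 and 75 with vehicle. It fell by 2.60 (SE 0.28, adjusted p = 5.59e-05) and Grin1 by 1.91 (SE 0.18). Vehicle libraries lay above panobinostat libraries in both pairs throughout.

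Of transcripts that face genes of developmental transcription factors, Prox1os held 54, 65, 28 and 46 reads with panobinostat and 187, 129, 255 and 228 with vehicle. Prox1, a homeobox gene of lymphatic and neural progenitor cells, held 1627 to 2308 reads in panobinostat tumours and 6978 to 12607 in vehicle tumours. The groups were apart in both genes. Prox1os fell by 1.98 (SE 0.31, adjusted p = 4.97e-04) and Prox1 by 2.14 (SE 0.20), a difference of 0.16 (95% interval -0.40 to 0.72).

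Emx2os has an annotated start 263 bp from one of Emx2, a homeobox gene of cortex and urogenital tract. It held 33, 35, 45 and 27 reads with panobinostat and 83, 107, 236 and 151 with vehicle, and fell by 1.86 (SE 0.33, adjusted p = 0.00102). Emx2 fell by 1.99 (SE 0.25), and the difference was 0.13 (95% interval -0.44 to 0.70). Zfhx2os, which shares the highest portion of its exons with its sense gene (73.1%), held 24, 31, 27 and 28 reads with panobinostat and 77, 65, 120 and 102 with vehicle. It fell by 1.59 (SE 0.26, adjusted p = 5.58e-04) and the zinc finger homeobox gene Zfhx2 by 1.12 (SE 0.17). Dlx6os1 overlapped between groups, with 9, 9, 14 and 32 reads with panobinostat and 62, 147, 54 and 26 with vehicle, and fell by 1.99 (SE 0.59, adjusted p = 0.0148). The homeobox gene Dlx6 fell by 1.31 (SE 0.34).

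In 3 further transcripts of this kind no change passed the test. Hoxd3os1 held 40, 28, 9 and 29 reads with panobinostat and 143, 100, 41 and 33 with vehicle, at a log2 change of -1.41 (SE 0.58, adjusted p = 0.0583), and passed without vehicle library 4 (adjusted p = 0.0361) or 3 (adjusted p = 0.0478). Sp3os, opposite the Sp-family factor gene Sp3, held 56, 43, 35 and 32 reads with panobinostat and 73, 66, 52 and 76 with vehicle, at -0.62 (SE 0.25, adjusted p = 0.0533), and passed without panobinostat library 1 or vehicle library 3 (adjusted p = 0.0462 and 0.0267). Prox2os stood at 0.20 (SE 0.33), with 19 to 25 reads in panobinostat tumours and 13 to 35 in vehicle tumours. The groups overlapped in all 3.

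Phf2os1, which has an annotated start 7 bp from one of Phf2, the gene of a histone demethylase, and was tested through its vehicle libraries alone, held 16, 13, 15 and 13 reads with panobinostat and 85, 41, 54 and 46 with vehicle. It fell by 1.82 (SE 0.27, adjusted p = 3.24e-04), and Phf2 by 1.61 (SE 0.12). The 7 transcripts that follow lie outside the naming rule too. Uchl1os held 11, 12, 20 and 10 reads with panobinostat and 39, 33, 37 and 25 with vehicle, and fell by 1.26 (SE 0.30, adjusted p = 0.00509), while Uchl1 fell by 1.33 (SE 0.18). The difference between them was 0.07 (95% interval -0.74 to 0.88), and Uchl1os, like Lrp8os3 below, was tested through its vehicle libraries alone. Srrm4os, opposite the gene of a neuronal microexon splicing factor, fell by 0.97 (SE 0.30), Epb41l4aos by 0.86 (SE 0.23), Kdm6bos, opposite a histone H3K27 demethylase gene, by 0.89 (SE 0.31), Lrp8os3, beside the reelin receptor gene Lrp8, by 0.89 (SE 0.33), Dtnbos by 0.86 (SE 0.32) and Tmem147os by 0.54 (SE 0.17). None of these 6 kept its call without libraries 3 and 4 of panobinostat (adjusted p from 0.0818 for Tmem147os to 0.199 for Kdm6bos), and leaving out 1 library lost the calls of Kdm6bos, Lrp8os3, Dtnbos and Tmem147os.

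**Figure D2:**
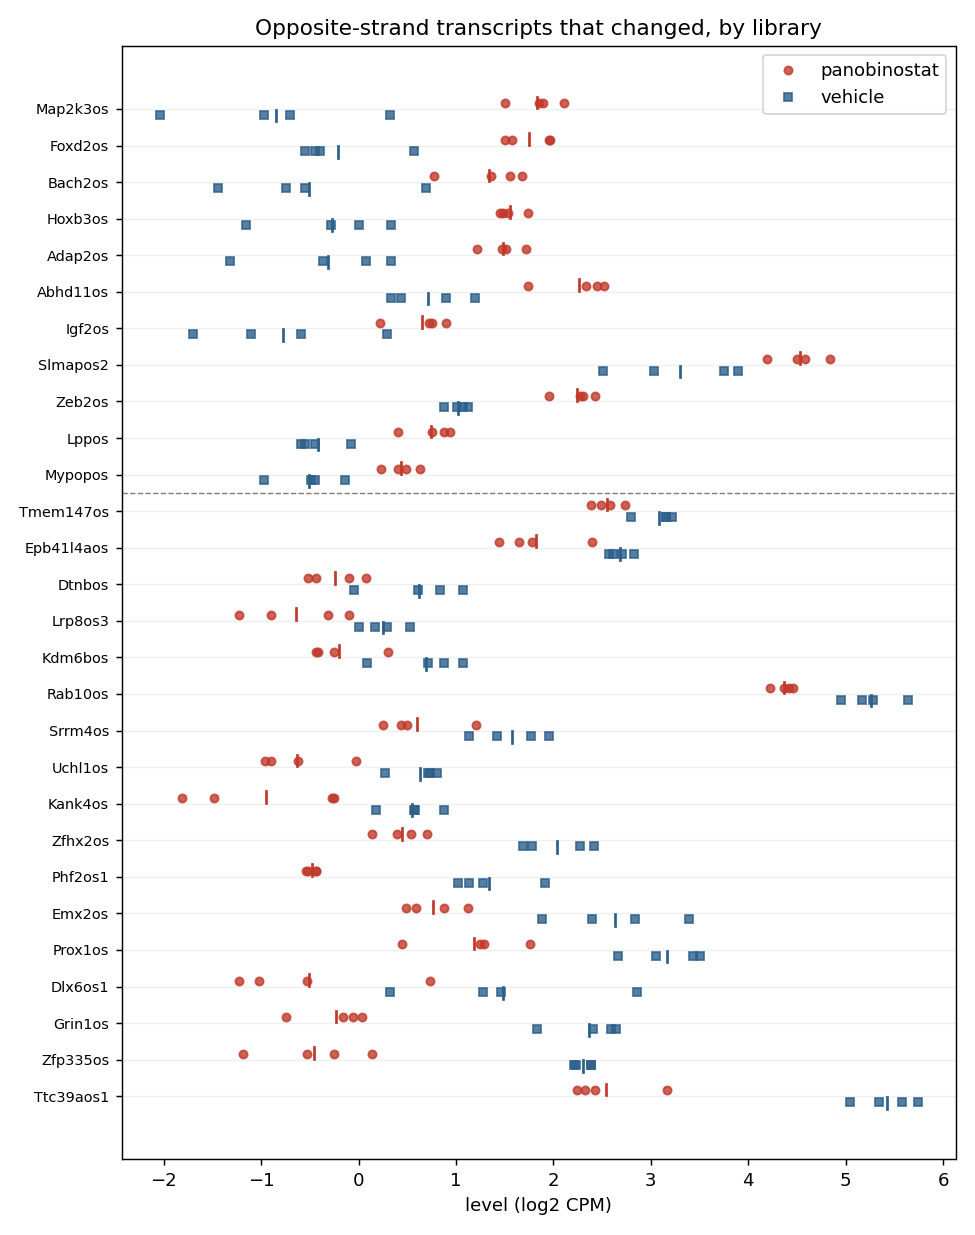
Level in log2 CPM (x axis) of the 28 opposite-strand transcripts that changed, in panobinostat (circles) and vehicle libraries (squares), with vertical ticks at the means, 4 libraries each. Transcripts above the dashed line were higher with panobinostat and those below it lower, and only Igf2os, Dtnbos, Kdm6bos, Srrm4os and Dlx6os1 had groups that overlapped.

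Of the 6 members with the highest mean level, Rab10os, Ttc39aos1 and Slmapos2 changed and 3 did not pass the test. Brip1os, the member with the highest mean level, lies 176 bp from the DNA helicase gene Brip1 and runs over Ints2 and Med13. Its reads were 960, 897, 986 and 972 with panobinostat and 858, 589, 1158 and 1225 with vehicle, at a log2 change of 0.13 (SE 0.20, adjusted p = 0.590). Brip1 stood at 0.08 (SE 0.16). H3f3aos, opposite a gene of the replacement histone H3.3, held 182, 150, 164 and 146 reads with panobinostat and 237, 230, 263 and 169 with vehicle, at -0.39 (SE 0.17, adjusted p = 0.0643), and passed without vehicle library 4 (-0.51, adjusted p = 0.00833). H3f3a fell by 0.46 (SE 0.09). Cep83os held 134, 140, 161 and 154 reads with panobinostat and 350, 287, 163 and 140 with vehicle, at -0.49 (SE 0.30, adjusted p = 0.172), beside 0.14 (SE 0.19) for the centriole gene Cep83, and it passed with library weights (-0.76, adjusted p = 0.00901) and with quantile normalization (-1.01, adjusted p = 0.00561).

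In 61 pairs both genes were tested, and in 19 of these (31.1%) both changed in 1 direction, 5 higher and 14 lower. The count over 1919 other annotated pairs that overlap on opposite strands was 23.3 percent, and 23.4% over the 589 of a non-coding with a coding gene. Opposite calls were made in 5 pairs (8.20%), beside 14.3 percent of the other pairs and 6.11% of those with a non-coding gene. The 19 include the pairs of Lppos, Phf2os1, Uchl1os and Lrp8os3, and the 5 include that of Kank4os. These transcripts passed the filter through 1 group alone, as did the sense gene of Hoxb3os, a pair also among the 19. Shares without these pairs are not given, and the other pairs were not screened in this way. The 31.1% is thus not read as a share above that of the other pairs. In 19 pairs the sense gene alone was called, in 3 the transcript alone and in 15 neither. Across the 61 pairs the 2 changes had Pearson's r of 0.587 and Spearman's rho of 0.616, given as a description since pairs share all 8 libraries and can share reads. The r was 0.651 for 38 pairs with overlapping exons, 0.872 for 10 head to head and 0.0859 for 10 in which only gene bodies overlap. It was 0.706 for 29 pairs whose nearest annotated starts lie within 500 bp and 0.456 for 32 others. Over the 1919 other annotated pairs r was 0.205, and over the 589 of a non-coding with a coding gene 0.396.

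**Figure D3:**
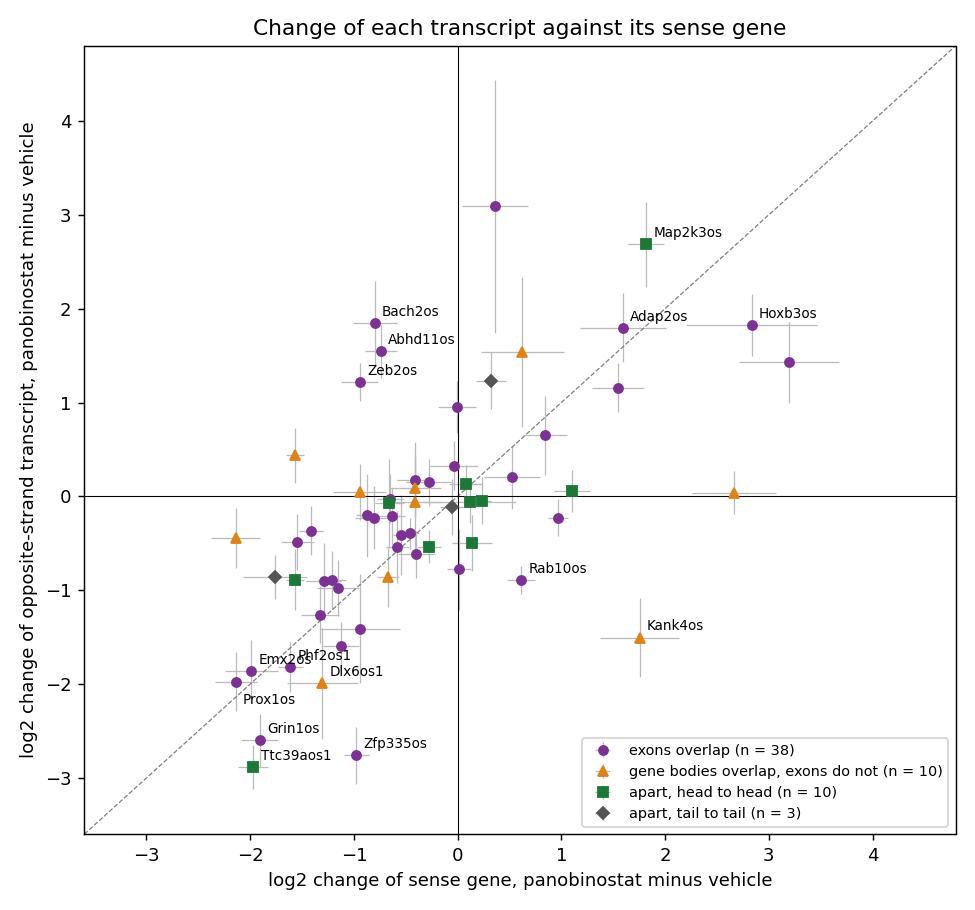
Log2 change of each transcript (y axis) against that of its sense gene (x axis), panobinostat minus vehicle, for 61 pairs, with standard errors as grey lines and symbols by annotated position. The dashed diagonal marks equal change, and Zeb2os, Abhd11os, Bach2os, Rab10os and Kank4os lie in the quadrants of opposite direction with both genes called.

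The difference between the 2 changes was itself called in 18 of the 61 pairs (29.5%), 9 higher and 9 lower for the transcript, beside 54.6 percent of all 1980 pairs fitted and 41.8% of the 589 pairs of a non-coding with a coding gene. These shares are not matched for level or position. Tested members had a median of 1.89 CPM, against 24.8 CPM for all tested genes, so their differences are harder to call. The other pairs all overlap, while 10 of the 61 lie apart head to head and 3 apart tail to tail. Of the 18, 5 were pairs with opposite calls, and the pairs of Kank4os and Mypopos had transcripts tested through 1 group alone. Zeb2os (ENSMUSG00000052248, chromosome 2, 45110707 to 45114087) has an annotated start 26 bp from one of Zeb2, with 6688 bp between the outermost 5′ ends of the 2 genes. Zeb2 is a zinc finger repressor gene of neural crest and of epithelial-mesenchymal transition, and Zeb2os shares 32.8% of its exon length with it. Zeb2os held 86, 103, 103 and 94 reads with panobinostat and 47, 44, 41 and 42 with vehicle, and rose by 1.22 (SE 0.20, adjusted p = 5.90e-04). Zeb2 held 1500, 1411, 1229 and 1234 reads with panobinostat and 3561, 3208, 2425 and 1971 with vehicle, and fell by 0.94 (SE 0.18). The groups were apart in both genes in opposite order, and the difference was 2.16 (SE 0.24, adjusted p = 4.57e-05, limma on the pairs, exact permutation p = 0.0286, the smallest that 70 assignments give).

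Abhd11os (ENSMUSG00000085042, chromosome 5, 135012114 to 135013253) held 112, 105, 119 and 65 reads with panobinostat and 28, 27, 51 and 39 with vehicle, and rose by 1.55 (SE 0.28, adjusted p = 0.00114). Abhd11, the gene of a mitochondrial hydrolase, held 551, 472, 562 and 546 reads with panobinostat and 1003, 1044, 723 and 1029 with vehicle, and fell by 0.74 (SE 0.15). The difference was 2.29 (SE 0.36, adjusted p = 4.09e-04, exact permutation p = 0.0286). Per length Abhd11os stood at 58.1% of Abhd11 with panobinostat and 11.7% with vehicle, and Zeb2os at 72.3% of Zeb2 with panobinostat and 15.6% with vehicle.

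Bach2os, inside the gene of a lymphocyte transcription repressor, held 65, 61, 53 and 33 reads with panobinostat and 13, 7, 36 and 14 with vehicle, and rose by 1.85 (SE 0.45, adjusted p = 0.00548). Bach2 held 274, 351, 357 and 362 reads with panobinostat and 519, 485, 917 and 618 with vehicle, and fell by 0.80 (SE 0.21). Scaled to library size the groups did not overlap in either gene. The difference was 2.65 (SE 0.38, adjusted p = 2.28e-04, exact permutation p = 0.0286), and with quantile normalization the rise of Bach2os was 1.09 (adjusted p = 0.0522).

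Rab10os and Kank4os fell while their sense genes rose. Rab10os (ENSMUSG00000079179, chromosome 12, 3235504 to 3250377) was the member with the second highest mean level and shares 2.33% of its exon length with Rab10, a small GTPase gene of membrane traffic. It held 477, 423, 430 and 367 reads with panobinostat and 811, 629, 1126 and 820 with vehicle, and fell by 0.89 (SE 0.15, adjusted p = 7.95e-04). Rab10 held 4522, 3978, 4343 and 3576 reads with panobinostat and 2518, 2262, 3743 and 2997 with vehicle, and rose by 0.61 (SE 0.14). The difference was -1.50 (SE 0.11, adjusted p = 5.15e-06, exact permutation p = 0.0286). Kank4os, whose exons lie in introns of the cytoskeletal gene Kank4, held 18, 5, 7 and 16 reads with panobinostat and 41, 30, 25 and 31 with vehicle, and fell by 1.50 (SE 0.42, adjusted p = 0.0109). It was tested through its vehicle libraries alone, so its call could be made in that direction only. Kank4 held 135, 150, 126 and 84 reads with panobinostat and 28, 20, 63 and 56 with vehicle, and rose by 1.75 (SE 0.38), a difference of -3.26 (SE 0.61, adjusted p = 0.00132).

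**Figure D4:**
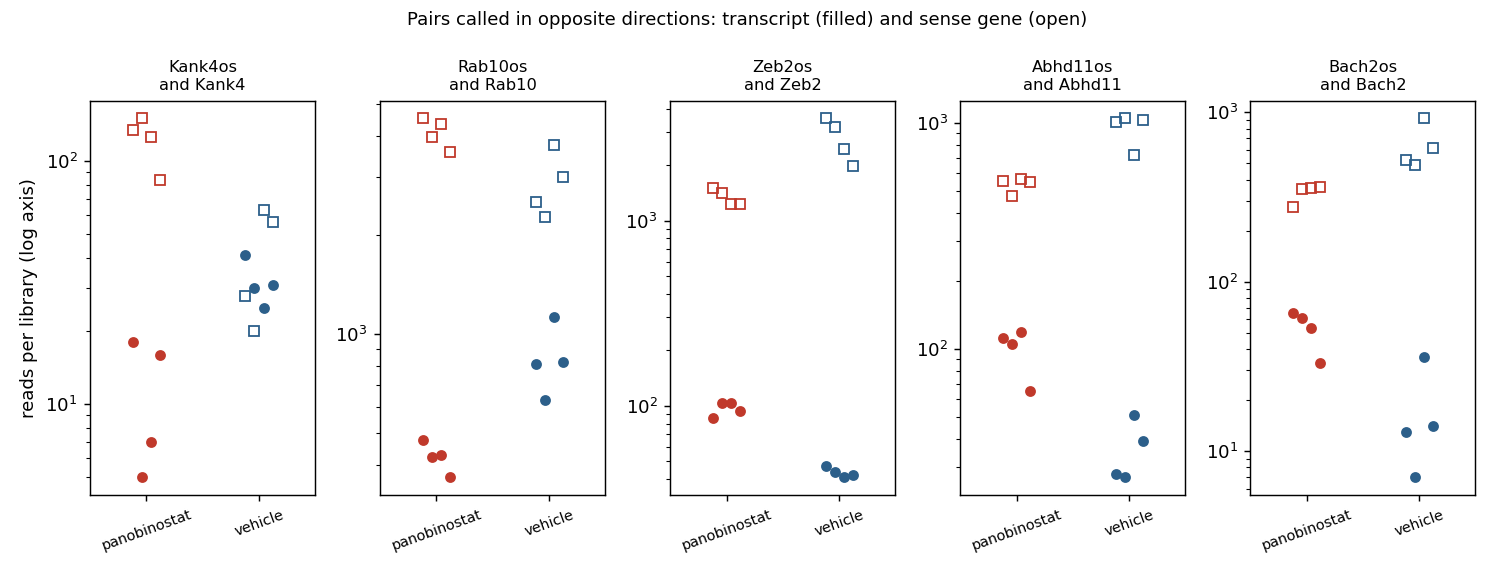
Reads per library (log axis, a scale per panel) of the 5 transcripts called in the direction opposite to their sense gene (filled) and of the sense gene (open), in panobinostat (left) and vehicle libraries (right). Kank4os and Rab10os were lower with panobinostat while Kank4 and Rab10 were higher, and Zeb2os, Abhd11os and Bach2os were higher while their sense genes were lower.

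In 8 pairs the difference was called while the transcript's own change was not, and apart from Cep83os these were picked with their values known. Rab26os held 109, 56, 75 and 78 reads with panobinostat and 75, 62, 93 and 92 with vehicle. Rab26, a gene of a vesicle GTPase in whose body it lies, rose by 2.66 (SE 0.41), with 69, 86, 104 and 68 reads with panobinostat and 6, 14, 24 and 14 with vehicle. The transcript's change of 0.04 (SE 0.23) was lower by 2.62 (SE 0.42, adjusted p = 4.89e-04, exact permutation p = 0.0286). Scpep1os was likewise lower than the carboxypeptidase gene Scpep1 in change, by 1.19 (SE 0.22), and Slc36a1os than the amino acid transporter gene Slc36a1, by 1.04 (SE 0.26), a call lost without libraries 3 and 4 of panobinostat (adjusted p = 0.0722). Cep83os stood 0.63 below Cep83 in change (difference -0.63, SE 0.17, adjusted p = 0.00897), a call also lost without those libraries (adjusted p = 0.0540).

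In the other direction, Kirrel3os stood at -0.45 (SE 0.32) beside a fall of 2.14 (SE 0.23) of Kirrel3, a neuronal adhesion gene, a difference of 1.69 (SE 0.38, adjusted p = 0.00381). For Ino80dos and the chromatin remodelling subunit gene Ino80d the difference was 1.05 (SE 0.22), which did not pass with quantile normalization (0.36, adjusted p = 0.152). For Atcayos and the neuronal gene Atcay it was 1.06 (SE 0.34, adjusted p = 0.0235), with an exact permutation p of 0.0857, and it did not pass with quantile normalization (0.38, adjusted p = 0.342) or library weights (0.64, adjusted p = 0.102). It also did not pass without panobinostat library 1, without vehicle library 1, 3 or 4, or without libraries 3 and 4 of panobinostat. Lrp8, the reelin receptor gene, has 2 tested opposite-strand transcripts and fell by 1.57 (SE 0.09). Lrp8os2, within the Lrp8 gene body, held 61, 84, 93 and 131 reads with panobinostat and 76, 64, 56 and 84 with vehicle, at a change of 0.44 (SE 0.29, adjusted p = 0.214) that differed from that of Lrp8 by 2.01 (SE 0.29, adjusted p = 2.48e-04). Lrp8os3, head to head with the same gene, fell by 0.89 and differed from Lrp8 by 0.69 (95% interval -0.00 to 1.37, adjusted p = 0.0842).

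Vehicle tumours varied widely in a few members. Ctcflos, opposite the gene of the testis paralog of CTCF, held 98, 64, 99 and 61 reads with panobinostat and 78, 42, 5 and 0 with vehicle, and Dnm3os 218, 129, 116 and 76 with panobinostat and 188, 75, 36 and 8 with vehicle. Neither passed the test, at log2 changes of 3.09 (SE 1.35, adjusted p = 0.0703) and 1.54 (SE 0.80, adjusted p = 0.121), and the groups overlapped in both. Ctcflos passed under 4 alternatives, which include leaving out vehicle library 1 or 2 (lowest adjusted p = 0.0168), and Dnm3os passed without vehicle library 1 (adjusted p = 0.0186). Dbhos, beside the noradrenaline synthesis gene Dbh, held 145, 126, 136 and 119 reads with panobinostat and 183, 124, 195 and 99 with vehicle, at -0.06 (SE 0.22), and passed with quantile normalization alone (adjusted p = 0.0166). These 3 were picked with their values known.

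Genes of nuclear RNA decay and transcription termination, which limit antisense and promoter-upstream RNAs in mammalian cells, are given beside them. Of 35 tested in a list of 36, 22 fell and 3 rose (71.4% called, median -0.61), beside 63.7 percent of all genes called and 32.4 percent lower, and 11 higher and 17 lower among the opposite-strand transcripts. Those named here were picked with their values known. Exosc10, a catalytic subunit of the nuclear exosome, averaged 5.37 ± 0.12 log2 CPM with panobinostat and 6.92 ± 0.24 with vehicle (SD, n = 4 each), a fall of 1.54 (SE 0.13, adjusted p = 1.65e-05). Mphosph6, an exosome cofactor, fell by 1.19 (SE 0.16), Ints6, an Integrator subunit, by 1.18 (SE 0.12), and Dis3, the other catalytic subunit, by 0.93 (SE 0.15). The helicase gene Mtrex fell by 0.42 (SE 0.11). Zfc3h1, which links the exosome to polyadenylated nuclear RNA, rose by 0.78 (SE 0.21), Zc3h3 by 0.67 (SE 0.15) and the Integrator gene Ints9 by 0.39 (SE 0.11).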

How the data were processed

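RNA was read from whole tumours of 8 mice, 4 per group, with 1 library each. Per the labels' protocols total RNA went into TruSeq libraries. Per the submitters' processing notes CASAVA 1.8.2, TopHat2, HTSeq, limma and mm10 were used, with no role given. Strand use in counting, annotation and filter: not given in the sources used here. The authors deposited log2 values of the form voom writes, log2 CPM of an effective library size with reads + 0.5, and 100% of the values gave whole reads to within 0.001 read. At 18664066 to 23830026 reads per library 1 CPM is about 20 reads, so counting error is large for most members.

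Groups come from the labels, and replicate numbers only name libraries. The numbers in the column names are lower for every vehicle library than for every panobinostat library, and what they stand for is not given. Litters, cohorts and dates are not given, so such a difference between groups cannot be told apart from treatment. The 16157 genes that reached 1 CPM in 4 or more of the 8 libraries entered limma 3.58.1, run in R 4.3.3 (variance trend, two-sided, Benjamini-Hochberg, threshold 0.05). Differences within pairs were fitted the same way over 1980 opposite-strand pairs, with exact permutation tests over 70 assignments. Both fits were tested on simulated data with known changes in a small share of genes, and with the genes of a pair drawn independently. These settings differ from the data, where 63.7 percent of tested genes were called and pairs can share reads. Symbols, positions and merged exons come from GENCODE M21 for 17236 of 17488 identifiers; start regions come from RefSeq. The sense gene is the symbol without os (1 by RefSeq synonym). Transcripts named by rule were, among changed members with groups apart, those with the 8 highest and 8 lowest changes, the 6 highest levels, those opposite to their sense gene, and those of developmental transcription factor genes with 10 reads in every library of 1 group. The members and lists were chosen with earlier results of these data known. Alternatives are given in the closing section.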

Additional observations from a re-analysis of the deposited data

Results flagged for a closer look

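Among 68 groups of 4 libraries, 2 for each of 34 transcripts, 4 held a library whose gap to the nearest other exceeded Dixon's critical value for 4 samples, as a share of the group's range, where chance gives about 1 in 20. Hoxd3os1 stood at -1.14 log2 CPM (9 reads) in panobinostat library 3, below the other panobinostat libraries. Foxd2os stood at 0.57 log2 CPM (33 reads) in vehicle library 1, above the other vehicle libraries. Tmem147os was low in vehicle library 2, at 2.79 log2 CPM (141 reads), and Uchl1os in vehicle library 4, at 0.27 log2 CPM (25 reads).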

How the results depend on the processing

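Every alternative was chosen with earlier results of these data known. No call of a member turned direction under any of the 20 alternatives, and 15 of the 28 calls passed in every alternative in which the transcript was tested. These 15 include Phf2os1 and Uchl1os, tested through their vehicle libraries alone, whose calls support nothing by themselves. They also include Map2k3os, Foxd2os, Zfp335os and Grin1os, whose entry into the test rested on the group where they were higher. With a filter of 5 CPM, which tests fewer transcripts, 6 members changed, 1 higher and 5 lower, with 3 pairs called in 1 direction, 1 in opposite directions, 5 with a called difference and 21 other antisense genes called. Without panobinostat libraries 3 and 4, which leaves 2 against 4 samples, 18 members changed, 7 higher and 11 lower, with 12 pairs in 1 direction, 11 differences and 47 other antisense genes. Quantile normalization gave 7 members higher and 35 lower, 29 pairs in 1 direction and 131 other antisense genes, and the cause was not tested. A threshold of 0.01 gave 10 members lower and 50 other antisense genes, and a pseudocount of 1 CPM, which shrinks the changes of low genes, gave 32 differences. Leaving out 1 library at a time gave 25 to 32 members changed, 11 to 13 higher and 14 to 21 lower, 47 to 52 sense genes, 16 to 23 pairs in 1 direction, 5 in opposite directions, 17 to 21 differences, 63 to 97 other antisense genes and 23 to 26 decay genes. The 48 sense genes and 25 decay genes called stayed within 1.5 times under every alternative. Of transcripts without a call, Prox2os stood at -0.57 with quantile normalization, against 0.20, and Brip1os at -0.055 to 0.28 without 1 library, against 0.13, and at 0.42 (adjusted p = 0.0285, limma) with library weights. H3f3aos, Hoxd3os1, Sp3os and Cep83os passed under 5, 5, 7 and 2 alternatives, quantile normalization among them for each. No paired analysis was possible because the labels give the groups no shared replicate numbers. Depth limits members near 1 CPM, where about 20 reads stand behind each value.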
